A study of Drosophila melanogaster with 8 samples.

Results

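The genes described here are 8 nuclear genes of Drosophila melanogaster that set how many mitochondria a cell makes or that package, transcribe and copy mitochondrial DNA (mtDNA): Ets97D, ewg, srl, TFAM, mtTFB1, mtTFB2, tam and mtSSB. They were taken by exact symbol from the 17558 genes of a count table for larval ring glands, and all 8 symbols were found. Poly(A)-selected mRNA was sequenced from 4 libraries of w[1118] larvae (wild type) and 4 libraries of larvae with the kdm5[140] allele, the null allele of the histone demethylase gene Kdm5. Each library was a pool of 80 ring glands from male and female larvae at the wandering stage of the last instar. The ring gland holds the prothoracic gland, which makes ecdysone, along with the corpus cardiacum and the corpus allatum. The larvae were matched by stage and kdm5[140] larvae reached it later, so that age and genotype cannot be told apart, and the allele is present in the whole animal and not only in the gland.

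In mammals, nuclear genes for mitochondrial proteins are activated by the transcription factors NRF-1 and GABP together with coactivators of the PGC-1 family. The fly homologues are ewg (NRF-1), Ets97D (the DNA-binding alpha subunit of GABP, also known as Delg) and srl (spargel, PGC-1). TFAM coats and bends mtDNA, mtTFB2 helps the mitochondrial RNA polymerase to start transcription, and mtTFB1 is a paralogue of mtTFB2 related to enzymes that methylate mitochondrial ribosomal RNA. The gene tam encodes the catalytic subunit of mtDNA polymerase gamma (PolG1 in newer annotation), and mtSSB covers single-stranded mtDNA while it is copied. In the prothoracic gland several enzymes of ecdysone synthesis work inside mitochondria.

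Between 17131110 and 19494692 reads per library were counted on genes. Between libraries of a genotype the chi-square of the counts, divided by its degrees of freedom, was 10.6 to 58.0, so replicates differed by more than sampling alone gives. Wild-type replicate 1 stood apart: against the other wild-type libraries this ratio was 40.0 to 58.0, and among those 3 it was 10.6 to 21.1. In kdm5[140], replicate 3 gave 23.7 to 45.2 against the other libraries, and among those the ratio was 19.7 to 22.5. The transcript of the targeted gene, listed under its older symbol lid, was higher in the libraries labelled kdm5[140], at 193 to 200 CPM (reads of the gene relative to the library size as scaled by the TMM method) against 144 to 172 CPM in wild type (log2 fold change 0.35, edgeR FDR = 0.00437). The groups did not overlap, but this call was lost without wild-type replicate 2, 3 or 4 or kdm5[140] replicate 1, 2 or 4 (edgeR FDR from 0.0114 to 0.0188). Gene counts do not show whether that transcript is intact, and kdm5[140] stands throughout for the libraries that carry this label. All 7 prothoracic gland markers were detected, and their summed level was 41172 to 44178 CPM in wild type and 30338 to 39373 CPM in kdm5[140]. The sum is made mostly of phm, sad and spok, and single markers of this list went in both directions: spok was called lower (log2 fold change -0.83), and sro (1.01) and dib (0.56) were called higher. Markers of other tissues also varied between libraries. The 3 fat body markers summed to 582 to 1597 CPM in wild type and 943 to 3696 CPM in kdm5[140]. The 3 salivary gland markers summed to 376 to 792 CPM and 139 to 1514 CPM, and no marker of these lists was called. The part of marker differences in the other results was not tested. In pooled tissue fewer cells of a type and less RNA per cell cannot be told apart.

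How well each of the 8 genes could be measured depended on its neighbours, because exons of several of them overlap other genes. Positions are those of dm6. The gene mtTFB1 (FBgn0261381, plus strand of 3L, 11708979 to 11710570) has 1 annotated transcript of 2 exons, and all 1529 of its exon bases are also exon bases of Ccdc56 on the same strand, a gene for a cytochrome c oxidase assembly factor. It had 0 reads in all 8 libraries, as did Ccdc56. A count of 0 allows up to 3 reads per library, or 0.154 to 0.175 CPM, but this limit applies to reads assigned to mtTFB1 and not to its transcript.

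The same pattern held across the table. Of 9165 protein-coding genes that share no exon base with another gene, 7.63% had 0 reads in every library. Of 296 whose every exon base is shared with a gene on the same strand, 94.9% had 0 reads in every library. Of 70 whose every exon base is shared only with genes on the opposite strand, 91.4% had 0 reads. Absence of an mtTFB1 transcript therefore cannot be told apart from reads that were assigned to neither gene. DNApol-gamma35, which encodes the accessory subunit of polymerase gamma, shares all 1570 of its exon bases with GatC and also had 0 reads in all 8 libraries, so the ratio of the catalytic to the accessory subunit could not be formed, nor that of mtTFB1 to mtTFB2.

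For mtSSB (FBgn0010438, minus strand of 3R, 16204194 to 16205250), 411 of 575 exon bases, or 71.5%, overlap CG31287 on the opposite strand, which leaves 164 bases of its own. Ets97D (FBgn0004510, minus strand of 3R, 26910775 to 26912886) shares 223 of 1858 exon bases, or 12.0%, with T48 on the opposite strand. Overlap was small for mtTFB2 (FBgn0037778, plus strand of 3R, 10045574 to 10047260), with 9 of 1512 bases shared with CG12811, and for ewg (FBgn0005427, minus strand of X, 268509 to 279718), with 16 of 6973 shared with CG3777. No exon base was shared for srl (FBgn0037248, minus strand of 3R, 4422483 to 4429335), TFAM (FBgn0038805, minus strand of 3R, 20575245 to 20577010) or tam (FBgn0004406, minus strand of 2L, 13823980 to 13827772). The annotation gives ewg 13 transcripts and srl 3, which counts per gene do not separate.

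**Figure D1:**
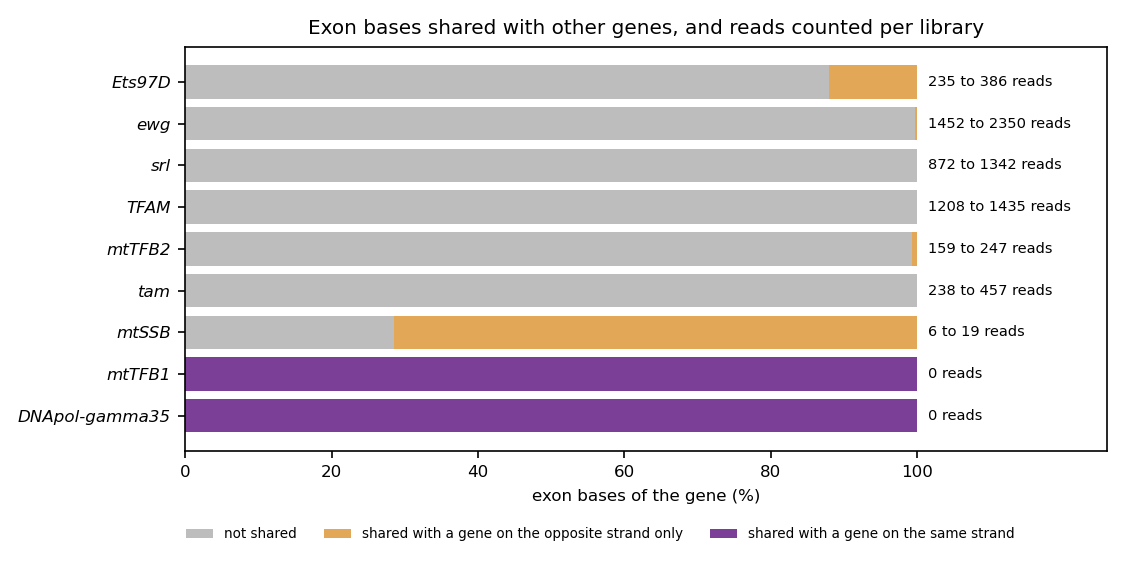
Bars give the percentage of each gene's exon bases that no other gene shares, that a gene on the opposite strand shares, or that a gene on the same strand shares, with the range of reads counted per library at the right. mtTFB1 and DNApol-gamma35, whose exon bases are all shared, had 0 reads, and mtSSB, with 164 of 575 bases unshared, had 6 to 19.

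Levels were compared between genes per kilobase (kb) of exon, as mean CPM per kb ± SD over 4 libraries. The gene mtTFB1, whose exon bases are all shared, could not be placed. In wild type the order was TFAM (62.0 ± 1.83), srl (14.3 ± 1.02), ewg (13.9 ± 2.14), mtTFB2 (8.22 ± 0.905), Ets97D (7.65 ± 0.667), tam (5.76 ± 0.693) and mtSSB (1.39 ± 0.360). The ranges of srl and ewg overlapped, as did those of mtTFB2 and Ets97D, and all other neighbours in this order were apart when all exon bases were counted. TFAM thus stood above 87.3% of the 9317 genes tested, whose median was 12.2 CPM per kb in wild type. The transcription factors and coactivator lay near the middle of the genes tested, with srl above 54.3%, ewg above 53.5% and Ets97D above 39.1% of them, while tam stood above 33.5%.

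In kdm5[140] libraries, again without mtTFB1, the order was TFAM (54.7 ± 3.86), ewg (16.0 ± 0.995), srl (11.9 ± 0.800), Ets97D (9.81 ± 0.834), mtTFB2 (6.22 ± 0.508), tam (4.56 ± 0.648) and mtSSB (0.766 ± 0.0991). These are CPM per kb of all exon bases, and no neighbouring ranges overlapped. Both pairs that were not separated in wild type were thus separated in kdm5[140], with ewg above srl and Ets97D above mtTFB2. The FPKM values deposited by the authors gave the same order in each genotype. They rest on the same reads and are nearly the same values, so this is no independent check. Per kb of its 164 unshared bases alone, the wild-type level of mtSSB was 4.86 ± 1.26 CPM and its kdm5[140] level 2.69 ± 0.348 CPM (SD, n = 4). Read pairs that also reach its shared bases may not have been assigned, so these values can still be too low. Counted over unshared bases only, the order is less clear in several places. In wild type the range of mtSSB, 3.27 to 6.36 CPM per kb, then overlapped that of tam, 4.88 to 6.53, and the mean of Ets97D, 8.69, came out above that of mtTFB2, 8.27, with overlapping ranges. In kdm5[140] the range of Ets97D, 9.85 to 12.1 CPM per kb, then overlapped that of srl, 11.2 to 12.8.

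**Figure D2:**
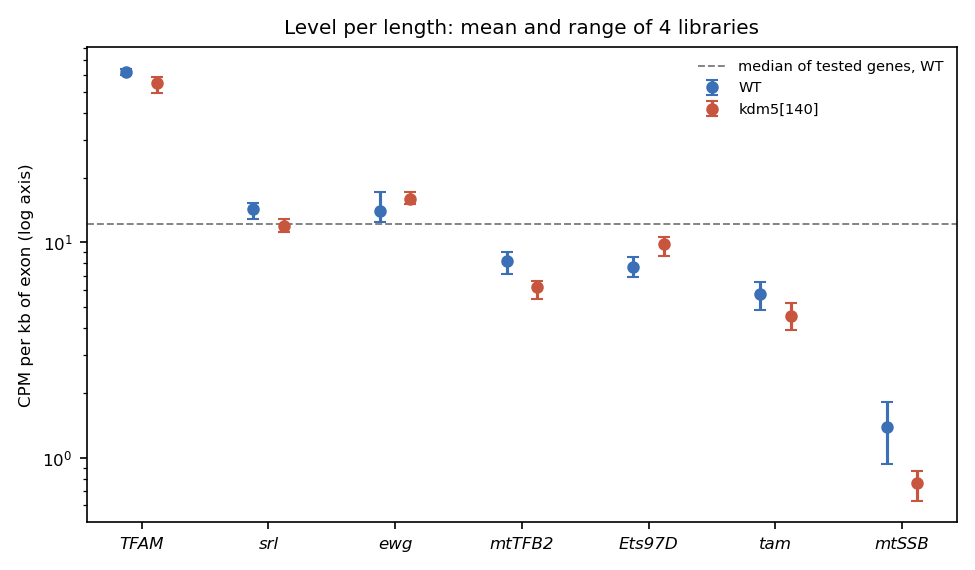
Mean level of 7 genes in CPM per kb of exon on a log axis, with bars for the range of 4 libraries per genotype and a dashed line at the median of the genes tested in wild type, 12.2 CPM per kb. The gene mtTFB1, with 0 reads assigned, could not be placed and is not drawn. ewg and srl overlapped in wild type and were apart in kdm5[140].

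The question of the comparison was whether transcripts of these regulators differ between wild-type and kdm5[140] ring glands. None of them passed the false discovery rate (FDR) threshold of 0.01. Of the 6 that could be tested, 4 had no overlap between genotypes, beside 33.2% of all genes tested. These were Ets97D, higher in kdm5[140], and srl, TFAM and mtTFB2, lower. The test was edgeR's quasi-likelihood test with Benjamini-Hochberg adjustment over the 9317 genes that passed the filter on low counts, of which 1633, or 17.5%, were called at FDR under 0.01. Of those, 896 were lower and 737 higher in kdm5[140], and scaling by library totals alone in place of TMM turned this split into 617 lower and 1091 higher. All 6 tested regulators stayed uncalled with DESeq2, which called 21.8% of the genes it tested, and with limma-voom, which called 17.3%.

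At FDR under 0.05, 3 of the 6 passed in edgeR (Ets97D higher, srl and mtTFB2 lower), and 30.9% of all genes tested did. At an unadjusted p under 0.05, 5 of the 6 passed (4 lower and 1 higher), and 42.5% of all genes tested did. The count of 4 of 6 without overlap stands beside 33.2% of all genes tested. With so few genes, these shares are given as a description. The median log2 fold change of the 6 was -0.22 and its median size was 0.30, beside 0.02 and 0.25 over all genes tested.

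The transcription factor Ets97D had 12.9, 14.4, 15.8 and 13.7 CPM in wild-type replicates 1 to 4. In kdm5[140] replicates 1 to 4 it had 19.7, 16.1, 18.2 and 18.9 CPM. Every kdm5[140] library was above every wild-type library, although the gap between the highest wild-type and the lowest kdm5[140] library was small. The means were 14.2 ± 1.24 and 18.2 ± 1.55 CPM (SD, n = 4), a log2 fold change of 0.36 (standard error (SE) 0.10, 95% interval 0.13 to 0.59, edgeR FDR = 0.0225). These values rest on 235 to 386 reads per library. The opposite-strand neighbour T48, an apical protein of cells that fold inward during gastrulation, had the opposite sign, between 19.1 and 23.8 CPM in wild type and between 16.8 and 18.2 CPM in kdm5[140] (log2 fold change -0.31, edgeR FDR = 0.0224).

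ewg, the NRF-1 homologue, is also known as a transcription factor of neurons. It had 119, 86.5, 89.6 and 93.1 CPM in wild-type replicates 1 to 4. In kdm5[140] replicates 1 to 4 it had 120, 114, 107 and 105 CPM. Wild-type replicate 1 lay among the kdm5[140] libraries, and the other 3 lay below all of them. With all libraries the log2 fold change was 0.20 (standard error 0.10, 95% interval -0.03 to 0.43, edgeR FDR = 0.172). Without wild-type replicate 1 it was 0.31 (edgeR FDR = 0.00641), past the threshold. Of 4 neuronal markers, all detected, elav was called higher in kdm5[140], and the summed level of the list was 124 to 179 CPM in wild type and 159 to 223 CPM in kdm5[140]; their part in the ewg values was not tested.

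The coactivator srl had 59.6, 68.0, 67.0 and 70.6 CPM in wild-type replicates 1 to 4. In kdm5[140] replicates 1 to 4 it had 57.6, 59.4, 52.7 and 51.8 CPM. The groups did not overlap, but wild-type replicate 1 and kdm5[140] replicate 2 were nearly level. The log2 fold change was -0.26 (standard error 0.07, 95% interval -0.42 to -0.09, edgeR FDR = 0.0252). It was -0.31 without wild-type replicate 1 (edgeR FDR = 0.00749), again past the threshold, and -0.16 when libraries were scaled by their totals alone (edgeR FDR = 0.198).

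The levels of Ets97D and srl can also be set against each other within a library. The log2 ratio of Ets97D to srl was -2.36 to -2.08 in wild type and -1.88 to -1.45 in kdm5[140], with means of -2.22 ± 0.115 and -1.60 ± 0.190 (SD, n = 4). The ratio does not give the direction of either gene, which rests on the scaling between libraries. This pair was chosen after the values were seen, so no test is given.

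**Figure D3:**
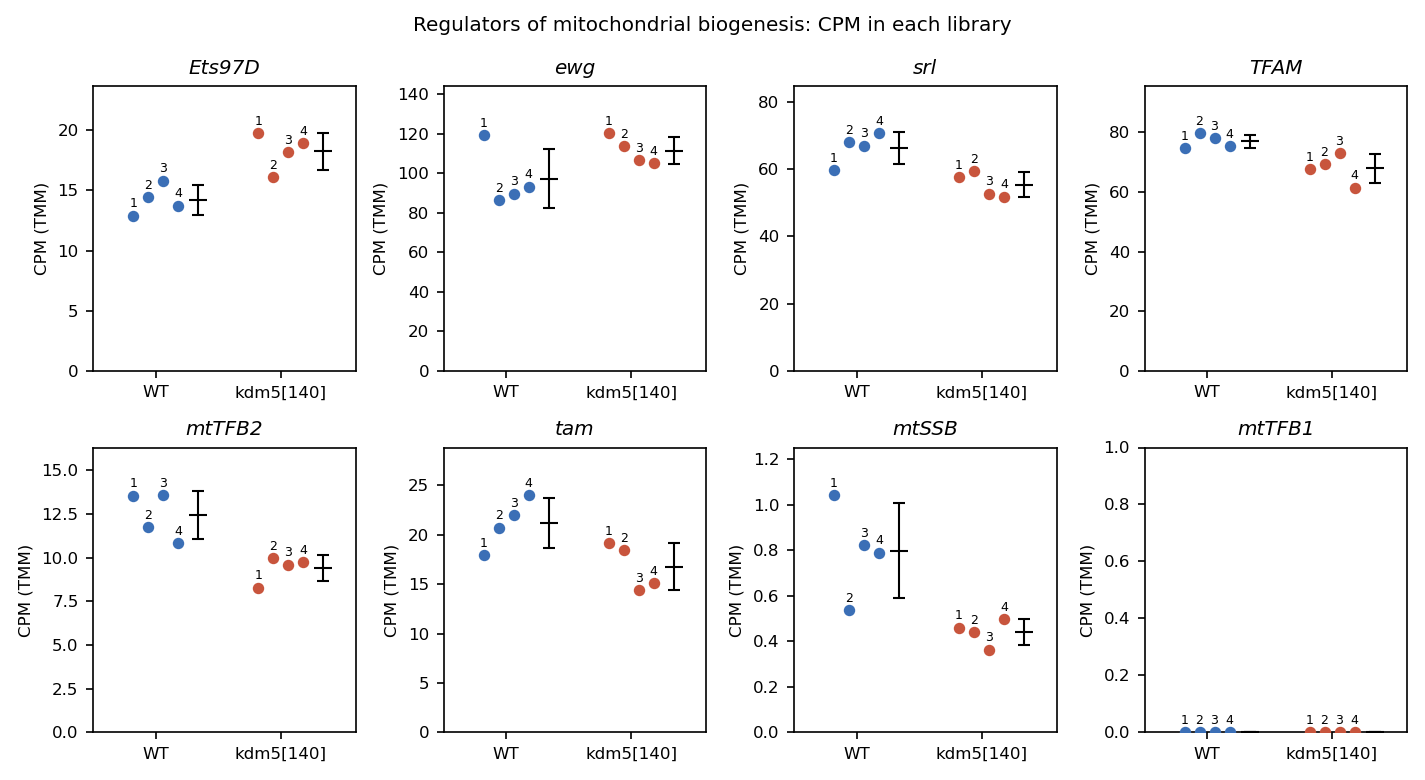
CPM (TMM-scaled) of the 8 genes in each library, with the replicate number above each point and the mean ± SD (n = 4) as a black bar; each vertical axis starts at 0 and has its own range. Among the tested genes Ets97D, srl, TFAM and mtTFB2 did not overlap between genotypes, beside 33.2% of all genes tested, and ewg and tam did. The low-count gene mtSSB did not overlap either, and mtTFB1 had 0 reads assigned.

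TFAM, the protein that packages mtDNA, varied least among the wild-type libraries of the 7 regulators with reads. It had 74.8, 79.7, 78.0 and 75.5 CPM in wild-type replicates 1 to 4, a coefficient of variation of 2.96% beside a median of 11.5% over all genes tested. In kdm5[140] replicates 1 to 4 it had 67.8, 69.5, 73.0 and 61.5 CPM. All kdm5[140] libraries were below all wild-type libraries. The log2 fold change was -0.18 (standard error 0.07, 95% interval -0.33 to -0.03, edgeR FDR = 0.0613), the smallest in size of the 6, and it was -0.08 when libraries were scaled by their totals alone (edgeR FDR = 0.288).

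The transcription factor mtTFB2 had 13.5, 11.7, 13.6 and 10.8 CPM in wild-type replicates 1 to 4. In kdm5[140] replicates 1 to 4 it had 8.28, 9.99, 9.61 and 9.76 CPM. The groups did not overlap. The log2 fold change of -0.40 was the largest in size of the 6 (standard error 0.12, 95% interval -0.68 to -0.12, edgeR FDR = 0.0341), and it rests on 159 to 247 reads per library. Its opposite-strand neighbour CG12811, which shares 9 bases with it, fell from 93.0 to 97.0 CPM in wild type to 49.9 to 61.0 CPM in kdm5[140] (log2 fold change -0.81).

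The polymerase gene tam had 17.9, 20.7, 22.0 and 24.0 CPM in wild-type replicates 1 to 4. In kdm5[140] replicates 1 to 4 it had 19.2, 18.4, 14.4 and 15.1 CPM. Wild-type replicate 1 lay within the kdm5[140] range, and the other 3 wild-type libraries lay above it. The log2 fold change was -0.34 (standard error 0.13, 95% interval -0.62 to -0.05, edgeR FDR = 0.0685), and -0.41 without wild-type replicate 1 (edgeR FDR = 0.0278).

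The single-strand binding gene mtSSB did not pass the filter on low counts. It had 19, 9, 14 and 15 reads in wild-type replicates 1 to 4 and 9, 8, 6 and 10 reads in kdm5[140] replicates 1 to 4, in all 57 against 33. Scaled to CPM these were 0.536 to 1.04 in wild type and 0.363 to 0.498 in kdm5[140], without overlap. With no filter its log2 fold change was -0.85 (edgeR FDR = 0.279), which at these counts is no detectable difference. How far the overlap with CG31287 lowered the counts of mtSSB was not tested. The log2 ratio of TFAM to mtSSB ranged from 6.16 to 7.21 in wild type and from 6.95 to 7.65 in kdm5[140], with overlap.

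The intervals also show how large a difference these data allow for each gene under TMM scaling, and they are not a joint bound. Over the 6 tested regulators the 95% intervals of the log2 fold change ran from -0.68, the lower bound of mtTFB2, to 0.59, the upper bound of Ets97D. The share of all tested genes with a smaller absolute log2 fold change was 66.3% for mtTFB2, 62.8% for Ets97D, 60.5% for tam, 50.9% for srl, 41.2% for ewg and 38.3% for TFAM.

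**Figure D4:**
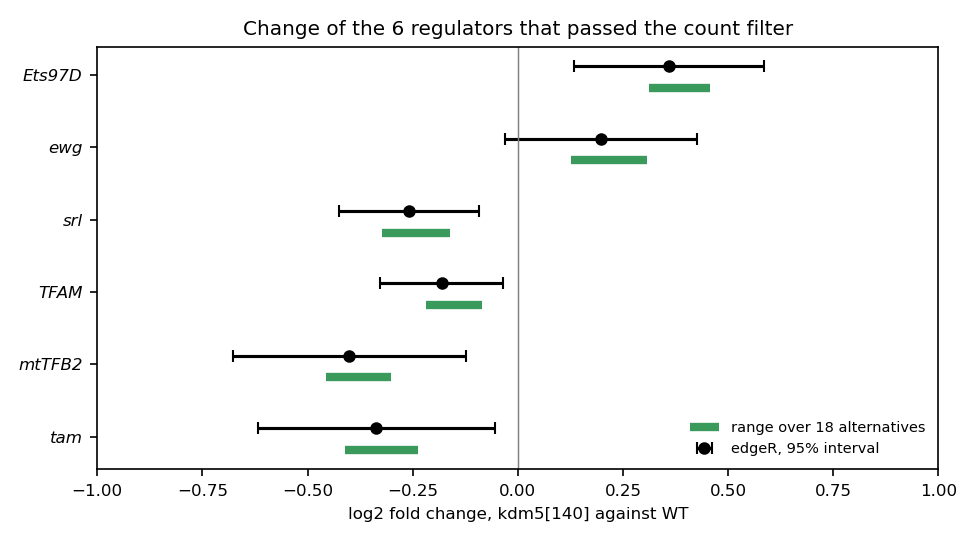
Log2 fold change of kdm5[140] against wild type for the 6 regulators tested, as a point with its 95% interval (edgeR), and as a green bar the range over 18 other ways to fit or scale the counts or with a library left out. Ets97D and ewg were positive and the other 4 negative, and none of the green bars, which reuse the same libraries, crosses 0.

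Wild-type replicate 1 decided where ewg and tam fell, and within wild type it was the lowest of the 4 libraries for 4 of the 6 regulators and the highest for ewg. Without it ewg and tam no longer overlapped, so that all 6 were without overlap between genotypes, beside 43.1% of all genes tested. Also without it, 2 of the 6 (ewg higher, srl lower) were called at FDR under 0.01, beside 19.2% of the genes tested in that fit. Leaving out a library cannot make separate groups overlap, so Ets97D, srl, TFAM and mtTFB2 had to stay without overlap. Without any of the other 7 libraries in turn, ewg and tam still overlapped. In these cases 35.7% to 42.0% of all genes tested were without overlap. None of the 6 was called in these fits.

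Over the 8 libraries, the closest pairs among the 6 were srl with tam, with a root-mean-square difference of 0.10 between their gene-centred log2 levels, and srl with TFAM, also 0.10. Ets97D and mtTFB2 were the farthest apart, at 0.40. Among all tested genes the closest to srl were GAA1, a subunit of the complex that attaches GPI anchors (0.03), AdSS, an enzyme of adenine nucleotide synthesis (0.04), and Amph, amphiphysin (0.05), beside a median of 0.27. The closest to Ets97D were CG34195 (0.06), CG8159 (0.07) and Grip71, a protein of the gamma-tubulin ring complex (0.07), beside a median of 0.31. These distances describe the pattern over 8 libraries and were not tested.

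Of 10 further genes of mtDNA replication and transcription, 9 were tested. Of these 2 were called at FDR under 0.01, in opposite directions, beside 17.5% of all genes tested. The mtDNA helicase gene, homologous to mammalian Twinkle, ranged from 9.11 to 11.6 CPM over the wild-type libraries, and its values in kdm5[140] replicates 1 to 4 were 16.1, 17.2, 17.6 and 17.6 CPM. It rose by a log2 fold change of 0.70 (SE 0.11, edgeR FDR = 0.00116). mtDNA-helicase shares 82 of 1965 exon bases with CG4537 on the opposite strand, whose own log2 fold change was 1.22. The log2 ratio of the helicase gene to tam, which act at the same replication fork, was -1.26 to -0.85 in wild type and -0.25 to 0.29 in kdm5[140]; this pair was chosen after the values were seen.

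The second gene called was rnh1, which encodes RNase H1, an enzyme that removes RNA from RNA-DNA hybrids. It had 20.9, 23.8, 24.1 and 22.5 CPM in wild-type replicates 1 to 4 and 15.6, 17.2, 17.3 and 14.0 CPM in kdm5[140] replicates 1 to 4, and fell by a log2 fold change of -0.51 (SE 0.10, edgeR FDR = 0.00327). The call was lost without wild-type replicate 2 or 3 or kdm5[140] replicate 1 (edgeR FDR from 0.0123 to 0.0132). The mitochondrial RNA polymerase gene mtRNApol had a log2 fold change of -0.06 (95% interval -0.23 to 0.12). The median of the 9 was -0.06, beside 0.02 over all genes tested.

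Of 10 genes that process or degrade mitochondrial RNA, 9 were tested and 1 was called, beside 17.5% of all genes tested. The gene called was CG11337, named PNPase in newer annotation, an RNA-degrading enzyme that ranged from 29.7 to 32.1 CPM over the wild-type libraries and from 22.8 to 25.2 CPM over those of kdm5[140], and fell by a log2 fold change of -0.36 (SE 0.07, edgeR FDR = 0.00298). Among its exon bases 20.3% are shared with genes on the opposite strand. The call was lost when libraries were scaled by their totals alone and when wild-type replicate 2 or kdm5[140] replicate 1, 2 or 4 was left out (edgeR FDR from 0.0101 to 0.0122). The median of the 9 was -0.12.

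Of 10 other regulators known to act on mitochondrial genes or with PGC-1 proteins, all were tested. Of these 1 was called higher and 1 lower, beside 17.5% of all genes tested called in either direction. The nuclear receptor Hnf4, which in flies promotes oxidative metabolism, had 109, 117, 117 and 115 CPM in wild-type replicates 1 to 4 and 63.5, 58.2, 64.7 and 61.1 CPM in kdm5[140] replicates 1 to 4. It fell by a log2 fold change of -0.89 (SE 0.06, edgeR FDR = 6.7e-06), larger in size than that of any of the 6 regulators tested. AMPKalpha, the catalytic subunit of the energy-sensing kinase AMPK, ranged from 132 to 145 CPM over the wild-type libraries and from 166 to 195 CPM over those of kdm5[140], and rose by a log2 fold change of 0.44 (SE 0.07, edgeR FDR = 0.00117). The median of the 10 was 0.08.

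The transcripts made from mtDNA itself, which these regulators serve, gave no call. Of 15 mtDNA-encoded genes, 13 passed the filter. None was called by edgeR at FDR under 0.01, beside 17.5% of all genes tested, nor by DESeq2 or limma-voom. None had an unadjusted edgeR p under 0.05 (42.5% of all genes tested), and none was without overlap between genotypes (33.2%). The largest log2 fold change in size was that of mt:srRNA, the small ribosomal RNA, at 0.76, with 26.3 to 73.0 CPM in wild type against 52.8 to 105 CPM in kdm5[140]. The summed level of the 13 protein genes was 17067 to 23404 CPM in wild type and 17245 to 25913 CPM in kdm5[140]. The absence of calls does not show equal levels, as the 95% interval of the log2 fold change of mt:CoI was -0.32 to 0.26. The large ribosomal RNA, mt:lrRNA, had 34257 to 41158 CPM in wild type, far above mt:srRNA. The part of poly(A) selection in these levels was not tested.

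**Figure D5:**
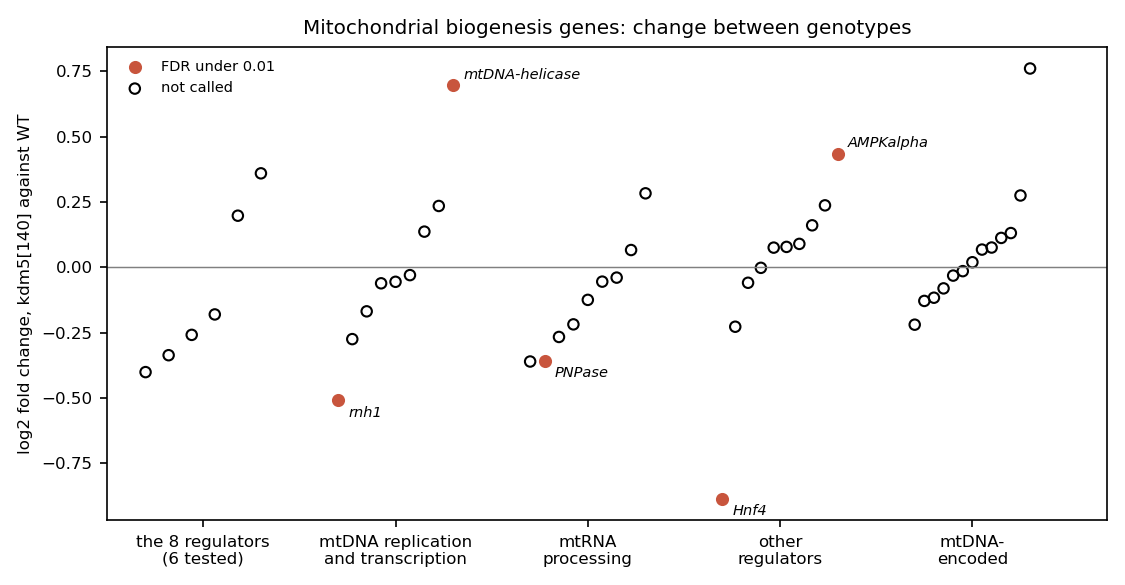
Log2 fold change of kdm5[140] against wild type for each tested gene of the 5 lists, sorted within a list; filled points passed an FDR of 0.01 in edgeR. The 6 regulators lie between -0.40 and 0.36 with no filled point, and the filled points are mtDNA-helicase, rnh1, PNPase, Hnf4 and AMPKalpha. Over all genes tested, 17.5% passed this threshold.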

How the data were processed

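The members and gene lists were chosen with earlier results of these data known. Per the labels and the methods of the study, the authors aligned reads to dm6 with HISAT2 2.0.5, used StringTie 1.3.3b and featureCounts 1.5.0-p3, and deposited whole-number counts per gene. Whether counting used strand is not given in the sources used here. The deposited FPKM values of the authors were used only to order levels. The deposited mean signal per genotype (counts divided by size factors) and the authors' own log2 fold changes and p-values from DESeq2 1.20.0 were not used.

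Counts were scaled by TMM, filtered with filterByExpr and tested with the robust quasi-likelihood test of edgeR 4.0.16 in R 4.3.3, at the study's FDR threshold of 0.01. DESeq2 1.42.0 and limma 3.58.1 (voom), other scalings and filters, a gene length offset, protein-coding genes only, FDR under 0.05, the replicate number as a block and leaving out each library were alternatives. Standard errors and intervals were derived from the log2 fold change and the F statistic of the test. The nearest patterns used log2(CPM + 0.5). Fits were tested on simulated data whose changes were all larger than those of the regulators tested. Power at the sizes seen for the regulators was therefore not tested. Exon overlaps came from the Ensembl annotation of dm6, which matched 17252 of 17558 genes, 98.4% with the same coordinates. Named were the 8 genes, lid, listed genes with an FDR under 0.01 (up to 4 a list), ratio partners, the 3 nearest genes to Ets97D and srl, and genes overlapping a member. A few older names in the RNA processing list belonged to other genes and were not used. Promoter motifs were not analysed here. Nothing says whether pools came from separate cultures, so p-values measure the spread between these pools. The limit for a count of 0 covers counting error only.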

Additional observations from a re-analysis of the deposited data

Results flagged for a closer look

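In 3 of 72 groups of 4 libraries examined (each gene of the lists in each genotype), the highest library lay far from the other 3. By chance this is reached in about 1 group in 20. Top3alpha, a topoisomerase, had 27.9 CPM in wild-type replicate 2 and 22.3 to 23.2 CPM in the other wild-type libraries. AMPKalpha had 145 CPM in wild-type replicate 4 and 132 to 134 CPM in the others, all below the kdm5[140] libraries. The transcription factor foxo had 77.1 CPM in wild-type replicate 1 and 46.0 to 48.6 CPM in the others, the same library that was highest for ewg. None of the 8 regulators was among the 3.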

How the results depend on the processing

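The direction of all 6 regulators tested was the same under all 18 alternatives, over which the log2 fold change ranged from 0.31 to 0.46 for Ets97D, 0.13 to 0.31 for ewg, -0.32 to -0.16 for srl, -0.22 to -0.08 for TFAM, -0.46 to -0.30 for mtTFB2 and -0.41 to -0.24 for tam. All alternatives reuse the same libraries, so the shared direction is not independent support. The count of regulators called was 0, and with a library left out it was 0 to 2. The 2 were ewg and srl, without wild-type replicate 1. Over all genes 1633 were called, and 960 to 1827 with a library left out (lowest without wild-type replicate 3). Genes of mtDNA replication and transcription called were 2, and 1 to 2 with a library left out: rnh1 was lost without wild-type replicate 2 or 3 or kdm5[140] replicate 1. RNA processing genes called were 1, and 0 to 1 with a library left out, and 0 with library totals only. At FDR under 0.05, 2875 genes, 3 of the 8 regulators and 2 RNA processing genes were called. The cause of these differences was not tested. Counts for the other regulators (2) and the mtDNA-encoded genes (0) were the same under all 19 alternatives. The call of lid was lost without wild-type replicate 2, 3 or 4 or kdm5[140] replicate 1, 2 or 4 (log2 fold change 0.31 to 0.36). With the replicate number as a block, 1617 genes and 0 of the 8 regulators were called, and no call on a list changed. Deviations of same-numbered libraries from their genotype means correlated at r = -0.12 to 0.19 over 4 pairs, and those of differently numbered libraries at r = -0.26 to 0.17. Whether same-numbered libraries share more than a number cannot be told from these values. Low counts limit mtSSB, with 6 to 19 reads per library and 411 of 575 exon bases shared with CG31287, and mtTFB1 was not measured.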
